A study of Mus musculus with 2 samples.

Results

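The genes described here encode the enzymes, transporters and regulators that carry glucose through glycolysis, lactate formation, entry into the citrate cycle, the pentose phosphate pathway and glycogen. They were chosen by gene symbol, as 37 known genes of these routes, and all 37 were found among the 17492 genes of the count matrix. The matrix holds single cells dissociated from corneal epithelium. All mice were male, of the strain C57BL/6J and 20 weeks old. One library, called control here, came from mice given sodium citrate buffer (streptozotocin dose 0 mg/kg). The other, called diabetic, came from mice given 1 injection of streptozotocin, a toxin of the insulin-producing beta cells, at 160 mg/kg, whose blood glucose stayed above 250 mg/dL over a study of 12 weeks. Each library pooled 4 corneas of 2 mice, so each condition is 1 sample. Cells of a pool are not replicates, no p-value is given, and diabetes, the mice and the library preparation cannot be told apart.

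Glycolysis splits glucose into pyruvate, which is either reduced to lactate or taken into mitochondria through the pyruvate dehydrogenase complex. The pentose phosphate pathway branches off after the first phosphorylation of glucose and yields NADPH, which feeds antioxidant defence and lipid synthesis, and ribose for nucleotides. The avascular cornea takes its glucose from the aqueous humor, and its epithelium is known for stored glycogen, for lactate output and for a very active pentose phosphate pathway with abundant transketolase.

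The control library held 9605 cells with a median of 16487 UMIs, the unique molecular identifiers that mark single RNA molecules. The diabetic library held 8203 cells with a median of 17677 UMIs, and 18 cell barcodes occurred in both. The authors assigned each cell to 1 of 8 labels (Basal, Wing, Squam, LSC, TAC1, TAC2, Conj and Immune), whose abbreviations are not spelled out in the sources used here. The limbal, replication, mitosis, wing, squamous, conjunctival and immune marker lists were each highest, as summed levels, in the LSC, TAC2, TAC2, Wing, Squam, Conj and Immune cells respectively, except that the replication list of the diabetic library was highest in TAC1 (501.9 CPM against 496.6 in TAC2). Krt12 made up most of the wing sum and Psca of the squamous sum. Single genes differed, with limbal Ifitm1 and squamous Cldn4 highest in Conj and Pcna and Mcm6 in TAC1 cells of both libraries. In the diabetic library wing marker Dsc2 was highest in Conj and limbal Apoe in Immune cells. The limbal sum there was 7146 CPM in LSC and 7022 in Conj cells. The basal marker list did not mark the Basal label, where its sum was the lowest of the 7 epithelial labels, at 2422 CPM in control and 2684 in diabetic cells. In both libraries Krt14 and Trp63 were highest in LSC, Krt15 in Conj and Col17a1 in TAC1 cells. Only Itgb4 was highest in Basal cells, and only in the diabetic library. The 7 epithelial labels are compared below, with 202 to 2902 cells each in the control and 331 to 2382 in the diabetic library. Immune cells numbered 26 and 10 and were left out of the comparisons by label, while the sums over all cells include them. All levels are CPM, the UMI counts of a gene summed over the cells of 1 label in 1 library and scaled to 1000000 UMIs of those cells. UMIs of this assay count RNA 3′ ends, so CPM were not divided by gene length. Where 7 levels of a gene are listed, they run from LSC over Basal, TAC1, TAC2, Wing and Squam to Conj cells. Ranges in parentheses after a fold are 95% intervals that cover counting error only.

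A gene counted as measured with 50 or more counts over both libraries. It was called higher or lower when its CPM differed by 1.5-fold or more and the 95% Poisson intervals of both libraries did not overlap. Over all cells 35 members were measured, and 0 were called higher and 0 lower, against 5.98% and 2.8% of all 13846 measured genes. Of the 35, 17 lay above and 18 below a ratio of 1, with a median log2 ratio of diabetic over control of -0.03 against 0.07 for all genes. At a looser ratio of 5 to 4, 2 members were called higher, Pdk2 and Gys1, where 13.3% of all genes were. At the same ratio 3 were called lower, Aldoa, Ldhb and Taldo1, where 6.45% of all genes were. The 2 members not measured were Slc16a3, a lactate exporter, with 5 and 6 counts, and Pdk4, a kinase of the pyruvate dehydrogenase complex, with 0 counts in control and 7 in diabetic cells, 5 of these in LSC cells. The makeup of the libraries differed, with Wing cells at 30.2% of control and 24.1% of diabetic cells. With the same weight for each label in both libraries, Ldhb was called lower over all cells, at a log2 ratio of -0.60.

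**Figure D1:**
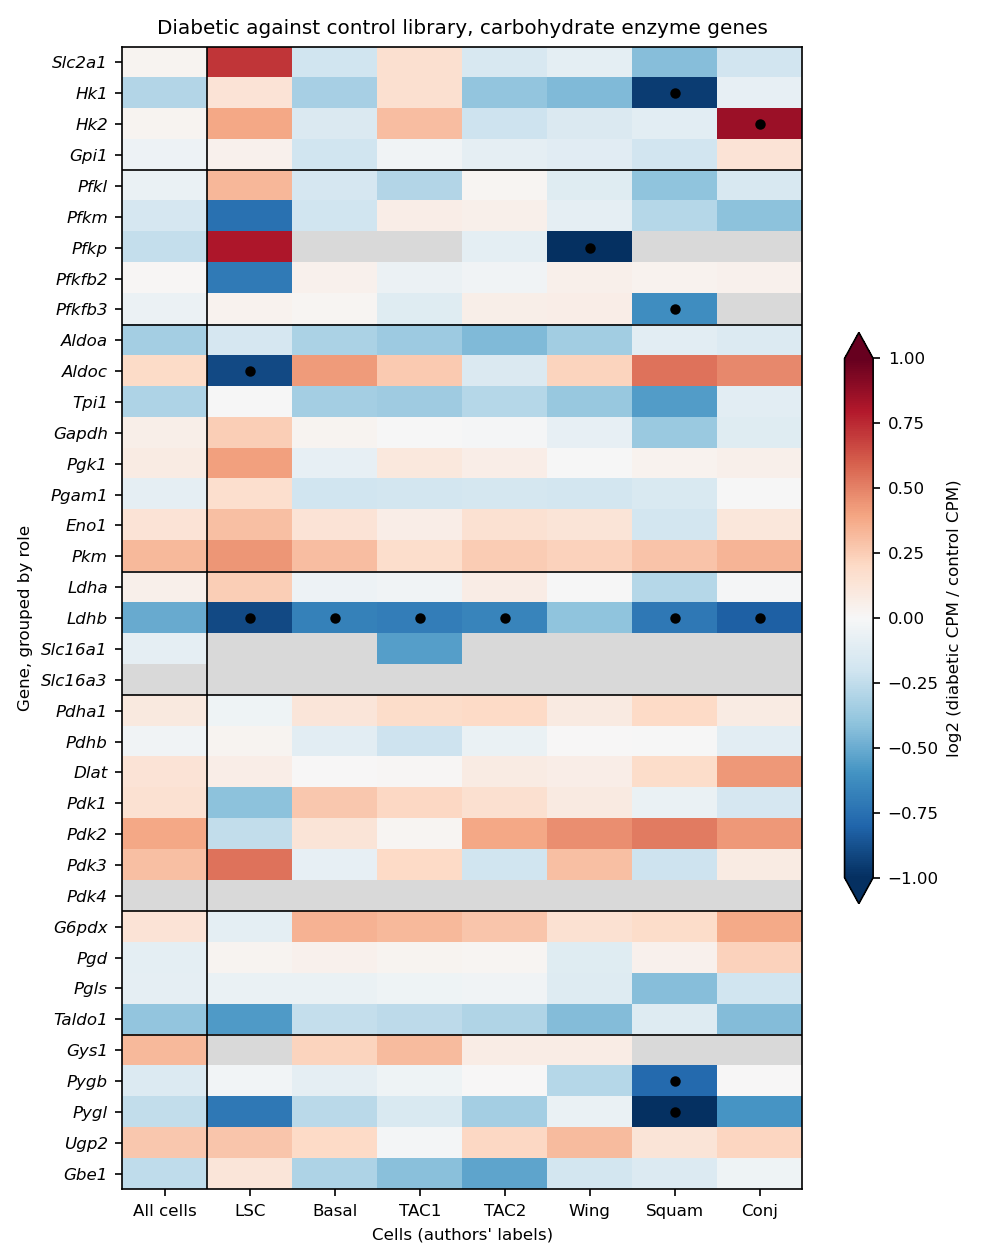
Log2 ratio of diabetic over control CPM for each of the 37 genes (rows, grouped by role) over all cells and in each epithelial label (columns). Colour runs from blue (lower in diabetic) to red (higher), grey marks fewer than 50 counts over both libraries, and a black dot marks a difference called by the 1.5-fold rule. Ldhb carries a dot in 6 of the 7 labels, and most other squares are pale.

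Within single labels, 12 pairs of member and label were called lower in the diabetic library and 1 higher, and Ldhb made up 6 of the 12. In LSC cells 0 of 33 measured members were higher and 2 lower, Ldhb and Aldoc, against 2.63% and 2.61% of all genes there. In Basal cells 0 of 33 were higher and 1 lower (2.63% and 2.38% of all genes). In TAC1 cells 0 of 34 were higher and 1 lower (1.7% and 1.52%), and in TAC2 cells 0 of 34 were higher and 1 lower (2.21% and 1.35%). The single lower member was Ldhb in all 3 of these labels. In Wing cells 0 of 34 were higher and 1 lower, Pfkp (3.93% and 2.59%). In Squam cells 0 of 32 were higher and 5 lower, Hk1, Pfkfb3, Ldhb, Pygb and Pygl (1.79% and 7.75%). In Conj cells 1 of 31 was higher, Hk2, and 1 lower, Ldhb (2.52% and 1.95%). Apart from Squam cells, where a larger share of all genes was lower, 0 to 2 members per label passed the rule in either direction.

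Direction was also compared at any size. Of the 31 members measured in all 7 labels, 2 lay above a ratio of 1 in every label, Pkm and Dlat, where 10.2% of 7952 genes did. Below 1 in every label lay 6 members, Aldoa, Tpi1, Ldhb, Pgls, Taldo1 and Pygl, where 11.5% of genes did. The other 23 members were mixed. The labels share their libraries, so the 7 directions of a gene are not independent.

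Of the promoters, those of 4 members whose RNA carries the differences between cell labels or libraries described below are printed, from RefSeq on GRCm38.p6. Each window runs from 250 bases before to 50 bases after a transcription start, 5′ to 3′ on the gene's strand. Capitals mark the letters ACGTG on either strand, the core bound by hypoxia-inducible factors, and CACGTG, the E-box read by MYC, USF and the glucose-sensing ChREBP, which contains ACGTG. The Slc2a1 window lies at chr4:119108495-119108794 on the plus strand. The Ldha window lies at chr7:46845554-46845853 on the plus strand. The Ldhb window lies at chr6:142507908-142508207 on the minus strand. The Taldo1 window lies at chr7:141391910-141392209 on the plus strand.
Slc2a1: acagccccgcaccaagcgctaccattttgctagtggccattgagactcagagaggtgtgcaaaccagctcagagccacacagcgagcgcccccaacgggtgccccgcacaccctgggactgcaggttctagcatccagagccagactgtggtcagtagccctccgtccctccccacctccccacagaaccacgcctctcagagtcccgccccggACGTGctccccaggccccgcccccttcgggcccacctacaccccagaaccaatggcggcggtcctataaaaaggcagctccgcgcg
Ldha: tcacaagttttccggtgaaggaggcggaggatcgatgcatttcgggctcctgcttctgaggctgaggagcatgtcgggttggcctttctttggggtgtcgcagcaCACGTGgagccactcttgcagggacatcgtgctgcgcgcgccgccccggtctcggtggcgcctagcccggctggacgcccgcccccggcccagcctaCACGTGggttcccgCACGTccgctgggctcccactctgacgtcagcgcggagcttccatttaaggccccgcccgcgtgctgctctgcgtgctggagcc
Ldhb: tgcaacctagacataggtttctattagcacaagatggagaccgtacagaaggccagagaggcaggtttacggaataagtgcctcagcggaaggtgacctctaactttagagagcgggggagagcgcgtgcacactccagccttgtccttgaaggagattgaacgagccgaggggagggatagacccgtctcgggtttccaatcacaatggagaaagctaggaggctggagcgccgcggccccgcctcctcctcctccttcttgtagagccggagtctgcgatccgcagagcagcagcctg
Taldo1: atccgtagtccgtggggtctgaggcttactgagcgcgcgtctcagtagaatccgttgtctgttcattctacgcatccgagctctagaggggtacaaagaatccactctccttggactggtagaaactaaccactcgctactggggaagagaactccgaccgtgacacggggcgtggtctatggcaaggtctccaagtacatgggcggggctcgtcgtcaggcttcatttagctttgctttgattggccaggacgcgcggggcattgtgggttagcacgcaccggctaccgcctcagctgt

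Counted on both strands, the Ldha window held 5 matches to ACGTG, 4 of them from 2 E-boxes that read the same on either strand, and the Slc2a1 window held 1. The windows of Ldhb and Taldo1 held 0. All 37 members had a window, and 13 had more than 1, of which the first listed was used. ACGTG occurred in 19 of 37 member windows (51.4%), against 24.4% of the windows of 12618 genes of the matrix. CACGTG occurred in 5 (13.5%) against 9.67%, and TGACNNNGC, letters of the antioxidant response element, in 3 (8.11%) against 14.6%. A match describes letters and is not a bound site.

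Glucose entry and the first steps differed mainly by label. Slc2a1, the transporter that brings glucose into the cell, was at 9.64, 25.3, 23.6, 21.7, 10.8, 4.79 and 3.78 CPM in control and at 15.9, 22.1, 26.4, 19.3, 10.1, 3.56 and 3.32 in diabetic cells. In both libraries the Basal and TAC labels thus lay far above Squam cells, where Slc2a1 was 5.27-fold lower than in Basal control cells and 6.19-fold lower than in Basal diabetic cells. In LSC cells the diabetic library was the higher, but the Poisson intervals overlapped.

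The 2 hexokinases measured here, which phosphorylate glucose on entry, were read in similar numbers. Hk2 gave 52.4% (50.8 to 54.1, exact binomial interval) of the Hk1 and Hk2 counts in control and 57.9% (56.1 to 59.7) in diabetic cells. Hk1 was at 18.4, 9.59, 7.31, 10.7, 10.8, 3.41 and 7.02 CPM in control and at 20.2, 7.61, 8.17, 8.14, 7.92, 1.77 and 6.63 in diabetic cells. It was lowest in Squam cells of both libraries, and there the diabetic library was 1.93-fold lower (1.40 to 2.70). Hk2 was at 17.4, 12.2, 12.9, 7.84, 10.2, 5.59 and 4.41 CPM in control and at 22.8, 11.0, 16.0, 6.79, 9.27, 5.20 and 7.98 in diabetic cells. In Conj cells the diabetic level exceeded that of control by 1.81-fold (1.26 to 2.62) on 49 and 89 counts, which made Hk2 the only member called higher in any label. It was not called in the other 6. Gpi1, the isomerase that follows, was steady between libraries at 89.6 and 86.6 CPM over all cells.

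At the phosphofructokinase step, which commits sugar to glycolysis, the liver-type gene Pfkl gave 56.2% and 58.1% of the counts of the 3 phosphofructokinase genes in control and diabetic cells. The muscle-type Pfkm gave 40.4% and 38.8%. Pfkl was at 28.5, 21.8, 24.1, 15.9, 14.4, 6.13 and 14.3 CPM in control and at 35.8, 19.4, 19.7, 16.1, 13.3, 4.64 and 12.8 in diabetic cells. Pfkm was at 10.6, 12.2, 8.48, 7.68, 13.4, 4.59 and 20.6 CPM in control and at 6.30, 10.6, 8.86, 7.97, 12.6, 3.76 and 15.5 in diabetic cells. Pfkl was thus highest in LSC and Pfkm in Conj cells of both libraries. Their balance differed by label, with Pfkl at 71.6% and 68.1% in TAC1 and Pfkm at 56.8% (51.8 to 61.7) and 51.2% (45.7 to 56.6) in Conj cells. Pfkp, the platelet-type gene, was the rarest of the 3. It was at 5.97, 0.886, 1.07, 1.94, 0.888, 0.179 and 1.35 CPM in control and at 10.4, 0.237, 0.347, 1.81, 0.245, 0.0981 and 1.97 in diabetic cells. In Wing cells it was 3.62-fold lower (1.99 to 7.13) in the diabetic library, on 70 and 13 counts. Basal cells had 28 and 8 counts and TAC1 cells 22 and 7, too few for the rule, while LSC cells had 13 and 48. The summed level of the 4 immune markers in Wing cells was 3.63 CPM in control, with 0 of 4 at 0, and 0.0189 in diabetic cells, with 3 of 4 at 0. Pfkp itself had 0 counts in the Immune cells of either library, where 3 counts, taken as the limit that a count of 0 allows, would be 31.2 CPM in control and 95.5 in diabetic cells. The part of immune cells in the Pfkp difference was not tested.

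Pfkfb2 and Pfkfb3 make the sugar phosphate that activates phosphofructokinase. Pfkfb3 was at 13.8, 16.9, 13.9, 10.6, 9.34, 13.6 and 1.80 CPM in control and at 14.1, 17.1, 12.8, 11.0, 9.79, 8.83 and 1.61 in diabetic cells. In Squam cells it was 1.54-fold lower (1.33 to 1.79) in the diabetic library, and under median-of-ratios scaling it no longer passed the fold. It was lowest in Conj cells of both libraries, where Pfkfb2 gave 81.5% (72.9 to 88.3) and 83.5% (75.2 to 89.9) of the pair's counts. Over all cells Pfkfb2 gave 38.3% and 39.5%. The larger Pfkfb2 share in Conj cells was thus seen in both libraries, and it came with less Pfkfb3 rather than more Pfkfb2. Conj over Basal cells, Pfkfb3 was at a ratio of 0.1065 in control and 0.0941 in diabetic cells, and Pfkfb2 at 0.924 and 0.921.

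**Figure D2:**
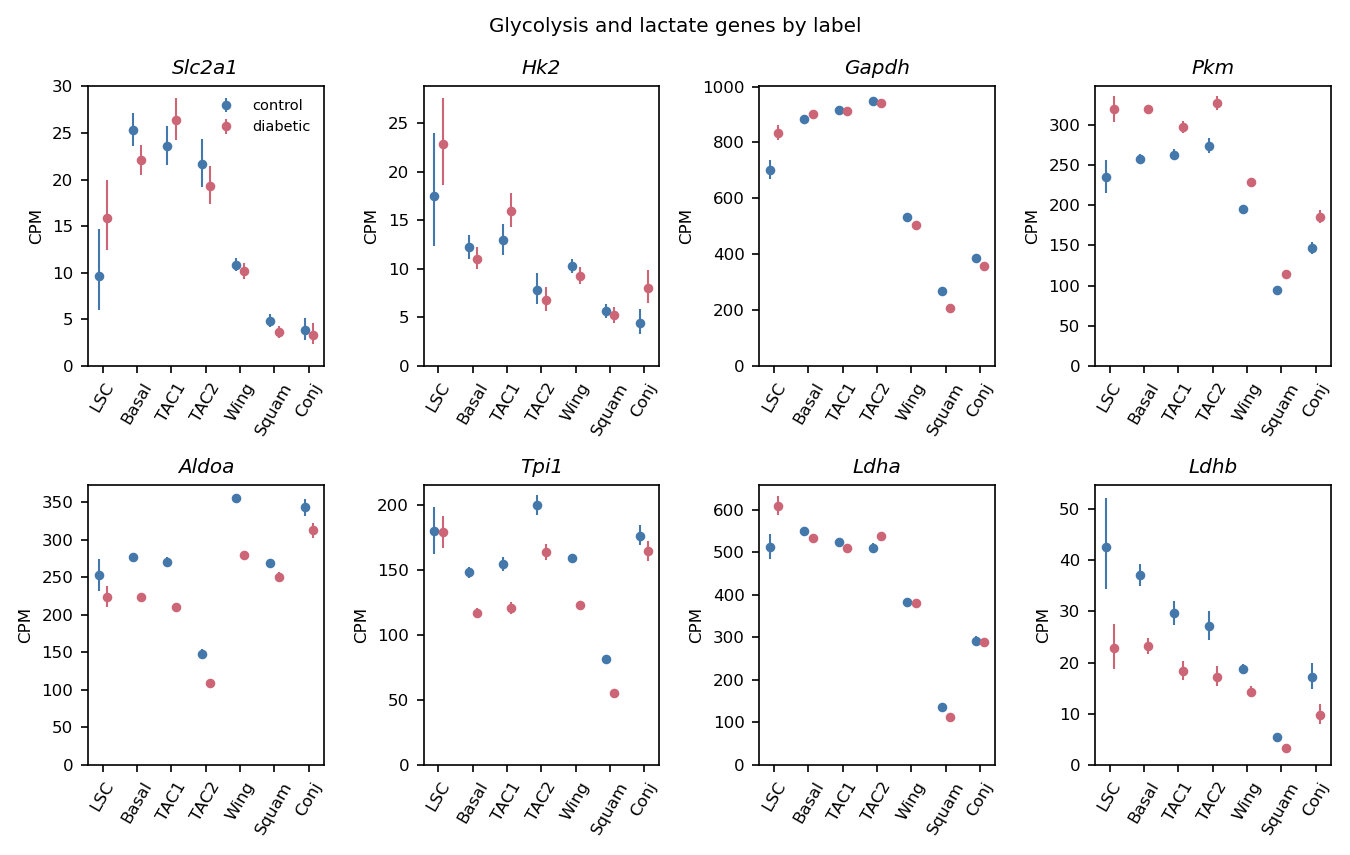
CPM of 8 glycolysis and lactate genes in each epithelial label for the control (blue) and diabetic (red) library, on linear axes that start at 0. Points are sums over the cells of a label and bars are 95% Poisson intervals. Ldhb is lower in the diabetic library in every label, Pkm is higher in every label, and 7 of the 8 genes are lowest or next to lowest in Squam cells.

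The 8 genes of lower glycolysis, from aldolase to pyruvate kinase, had nearly the same summed level in both libraries, 1535 CPM (1530.0 to 1541) in control and 1527 (1521 to 1533) in diabetic cells. The sum hid opposite moves that stayed under 1.5-fold. Aldoa, the main aldolase, was at 302 CPM in control and 238 in diabetic cells, 1.27-fold lower (1.251 to 1.28). Tpi1, triose phosphate isomerase, was at 146 and 118 CPM, 1.24-fold lower (1.21 to 1.26). Pkm, pyruvate kinase, was at 196 and 245 CPM, 1.249-fold higher (1.23 to 1.27). These 3 genes kept their direction in every epithelial label, and Pkm was 1.13-fold higher in TAC1, its least, and 1.36-fold higher in LSC cells, its most. Gapdh, at 597 and 622 CPM, Pgk1, at 89.1 and 94.2, Pgam1, at 106 and 99.4, and Eno1, at 74.5 and 82.0, did not keep 1 direction across the labels. Gapdh was at 702, 883, 917, 947, 531, 266 and 387 CPM in control and at 834, 901, 914, 942, 502, 206 and 356 in diabetic cells. Pgam1 was at 122, 133, 163, 172, 107, 34.3 and 81.8 CPM in control and at 138, 116, 144, 152, 94.4, 30.9 and 81.7 in diabetic cells. Eno1 was at 56.9, 100.3, 95.2, 93.2, 80.0, 32.5 and 51.6 CPM in control and at 69.9, 110.2, 99.9, 104, 87.5, 28.7 and 55.7 in diabetic cells. All 3 were lowest in Squam cells of both libraries, and Gapdh and Pgam1 were highest in TAC2 and Eno1 in Basal cells. For Aldoa, Gapdh, Ldha, Pgam1 and Pgk1 the GENCODE annotation holds 2 pseudogenes each that carry the gene's name, and 2 entries named Aldoa. The levels of these genes thus depend on how shared reads were assigned. Pseudogenes under other names were not counted for any member.

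The second aldolase gene, Aldoc, took a larger share in the diabetic library. It gave 7.96% (7.75 to 8.17) of aldolase counts in control and 11.1% (10.8 to 11.4) in diabetic cells. Its level was at 24.8, 19.5, 19.0, 14.6, 35.6, 22.2 and 17.5 CPM in control and at 13.2, 26.1, 22.8, 13.2, 41.4, 32.5 and 24.4 in diabetic cells. The diabetic library was the higher in 5 of the 7 labels, and in LSC cells it was 1.87-fold lower (1.27 to 2.74) on 54 and 61 counts. In those cells the stromal marker Dcn, the only measured gene of the stromal list, was at 13.3 CPM in control and 23.7 in diabetic cells, and the conjunctival list summed to 1281 and 1488 CPM. The part of other cells in the Aldoc difference was not tested.

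Of the 35 measured members, Ldhb had the largest log2 ratio over all cells in either direction, -0.50. The subunits of lactate dehydrogenase are encoded by Ldha (chromosome 7, 46841475 to 46855627, GRCm38, plus strand), whose enzyme favours lactate formation, and Ldhb (chromosome 6, 142490249 to 142507957, minus strand), whose enzyme favours lactate use. Ldhb was at 37.2 CPM in Basal control and 23.2 in Basal diabetic cells, 1.60-fold lower (1.46 to 1.76). It was at 42.7 and 22.8 CPM in LSC cells, 1.87-fold lower (1.40 to 2.50), and at 17.2 and 9.77 in Conj cells, 1.76-fold lower (1.38 to 2.25). The diabetic library was below the control library in each, with intervals apart.

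The same held in TAC1, TAC2 and Squam cells. Ldhb was at 29.6 and 18.3 CPM in TAC1 (1.62-fold lower), 27.2 and 17.2 in TAC2 (1.58-fold lower) and 5.43 and 3.30 in Squam cells (1.65-fold lower). Wing cells, at 18.8 and 14.3 CPM, differed by 1.32-fold (1.21 to 1.44), under the fold of the rule. Over all cells Ldhb was at 21.0 and 14.8 CPM, 1.42-fold lower (1.35 to 1.49). Cells were also thinned to 5000 UMIs, which left out 486 control and 264 diabetic cells with fewer. Ldhb was then called lower over all cells, and in 3 of the 7 labels in place of 6. In Conj cells its ratio of diabetic over control was then 0.710 and in LSC cells 0.573, neither of them called.

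Ldha did not follow. It was at 380.3 CPM in control and 395 in diabetic cells over all cells. By label Ldha was at 514, 552, 524, 511, 382, 136 and 292 CPM in control and at 609.7, 533, 511, 538, 382, 112 and 289 in diabetic cells. No label passed the rule for Ldha, and Squam cells were lowest in both libraries. Ldhb was therefore the smaller share of lactate dehydrogenase counts in the diabetic library, 3.61% (3.47 to 3.75) against 5.22% (5.07 to 5.38) in control. The share was 6.32% and 4.17% in Basal, 7.67% and 3.61% in LSC and 3.84% and 2.87% in Squam cells. Among the 7 labels, the binomial intervals of the share overlapped only in Squam cells. Slc16a1, a lactate and pyruvate carrier, was rare, at 0.642 and 0.602 CPM, and was measured only in TAC1 cells, at 2.76 and 1.88 CPM.

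**Figure D3:**
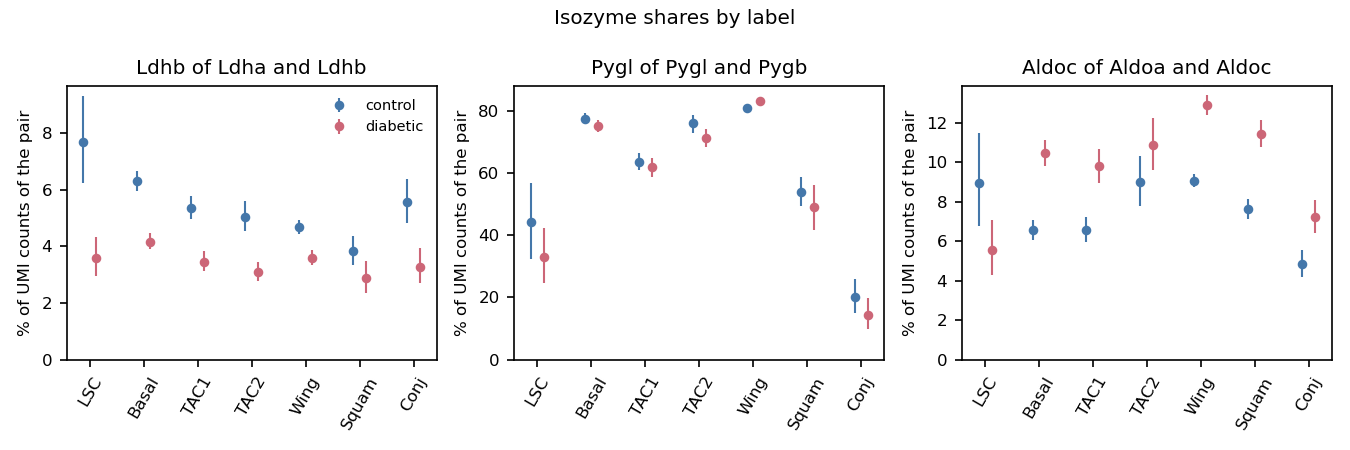
Share of Ldhb, Pygl and Aldoc in the UMI counts of their isozyme pair, in percent, by epithelial label, for the control (blue) and diabetic (red) library, with exact 95% binomial intervals. The Ldhb share is lower in the diabetic library in every label, the Pygl share drops in Conj cells of both libraries, and the Aldoc share is higher in the diabetic library in each label but LSC.

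At the gate to mitochondria, the subunit gene Pdha1 was higher in Squam and Conj than in Basal cells. It was at 50.2 and 54.7 CPM in Basal, 67.0 and 71.3 in Wing, 95.4 and 109 in Squam and 105 and 111 in Conj control and diabetic cells. Its partners Pdhb and Dlat were at 37.1 and 36.3 CPM and at 21.6 and 23.7 CPM over all cells. The inhibitory kinases changed their balance by layer. Pdk1 gave 69.5% (67.9 to 71.0) and 64.2% (62.4 to 66.0) of kinase counts in Wing cells but 28.8% (25.7 to 32.0) and 21.6% (18.8 to 24.6) in Squam cells, where Pdk2 gave 67.4% and 75.8%. Pdk1 itself was at 39.5, 31.1, 29.0, 31.6, 31.4, 6.00 and 21.9 CPM in control and at 29.8, 37.4, 33.6, 35.3, 33.4, 5.72 and 19.4 in diabetic cells. Pdk3 was at 11.0, 6.93, 7.94, 10.5, 2.41, 0.795 and 2.97 CPM in control and at 16.1, 6.54, 9.11, 9.10, 2.96, 0.687 and 3.14 in diabetic cells. Both had their lowest level in Squam cells of both libraries.

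Between the libraries Pdk2 was at 17.0 CPM in control and 22.1 in diabetic cells, 1.31-fold higher (1.246 to 1.37). By label it was at 28.2 and 30.8 in Basal, 11.4 and 15.7 in Wing, 14.1 and 20.1 in Squam and 11.9 and 16.0 in Conj cells. LSC cells were the exception, at 35.8 and 30.2 CPM. No label passed the rule for Pdk2.

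In the pentose phosphate pathway the 4 members ran in different directions by layer. G6pdx, the dehydrogenase that opens the pathway, was at 41.8 and 53.1 CPM in Basal, 92.5 and 103 in Wing and 86.8 and 113 in Conj control and diabetic cells. Pgd, the second dehydrogenase, was at 42.9 and 44.3 CPM in Basal, 87.7 and 80.5 in Wing, 81.1 and 83.4 in Squam and 90.0 and 106 in Conj cells. Neither gene was called between the libraries in any label.

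Taldo1 (chromosome 7, 141392199 to 141402968, GRCm38, plus strand), transaldolase of the non-oxidative arm, differed most between labels among the 4. It was at 397, 352, 309, 358, 815, 1211 and 1561 CPM in control and at 268, 298, 258, 291, 604, 1108 and 1154 in diabetic cells. Squam cells were 3.44-fold above Basal cells in control (3.37 to 3.51) and 3.71-fold in diabetic cells (3.63 to 3.80). In each label the diabetic library was the lower of the 2, and over all cells Taldo1 was at 773 and 588 CPM, 1.32-fold lower (1.31 to 1.33). Pgls, the lactonase between the dehydrogenases, did the opposite by layer, at 351 and 336 CPM in Basal and 133 and 98.4 in Squam cells.

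The best known pentose phosphate enzyme of cornea, transketolase (Tkt), is not among the 37 and was set beside Taldo1, its partner in the non-oxidative arm. Tkt was at 8501 and 8694 CPM in Basal, 2759 and 3470 in Wing, 680.3 and 531 in Squam and 672 and 601 in Conj control and diabetic cells. From Basal over Wing to Squam cells its order was thus opposite to that of Taldo1 in both libraries. Over all cells Tkt was at 3902 and 4516 CPM.

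**Figure D4:**
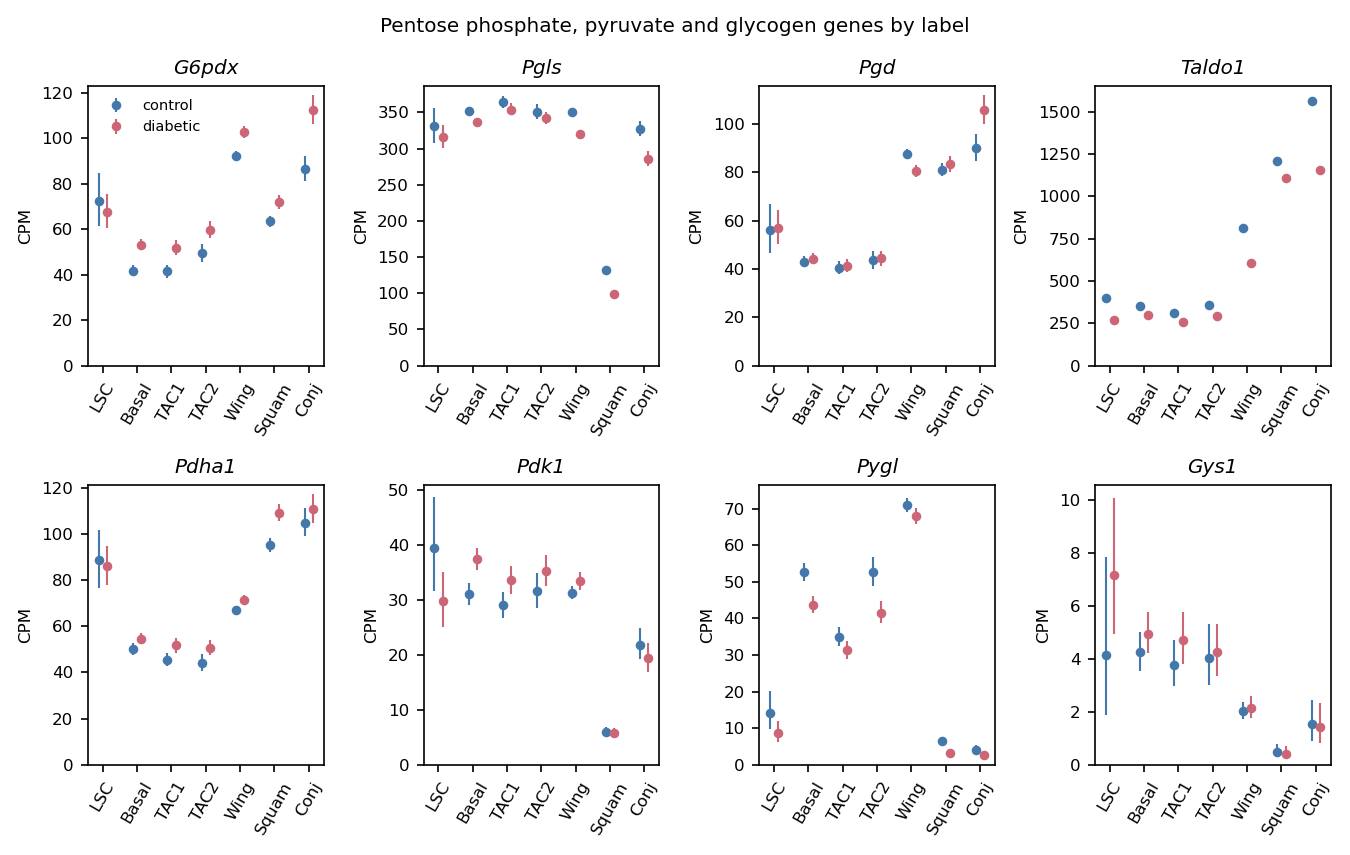
CPM of 8 pentose phosphate, pyruvate dehydrogenase and glycogen genes in each epithelial label for the control (blue) and diabetic (red) library, on linear axes that start at 0, with 95% Poisson intervals. Taldo1, Pgd and Pdha1 are higher in Squam and Conj than in Basal cells of both libraries, while Pgls, Pdk1 and Gys1 are lower in Squam than in Basal cells.

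Of the 5 glycogen genes, 4 were called lower in Squam than in Basal cells of both libraries, all but Gbe1. By the same rule 58.8% of all genes were lower there, so 4 of 5 genes is no trait of this group. Pygl, the liver-type glycogen phosphorylase that releases stored sugar, was at 14.2, 52.7, 35.0, 52.7, 71.1, 6.38 and 4.05 CPM in control and at 8.69, 43.8, 31.4, 41.6, 68.0, 3.04 and 2.69 in diabetic cells. Its levels in Squam and Conj cells lay far below those in Basal and Wing cells in both libraries. In Squam cells the diabetic library was 2.10-fold lower (1.65 to 2.69). Pygb, the brain-type enzyme, was at 17.9, 15.3, 19.9, 16.7, 16.7, 5.43 and 16.1 CPM in control and at 17.6, 14.4, 19.3, 16.7, 13.7, 3.17 and 16.1 in diabetic cells, and was 1.71-fold lower in Squam cells (1.34 to 2.20). Pygl gave 81.0% (80.0 to 81.9) and 83.2% (82.0 to 84.3) of phosphorylase counts in Wing cells but 20.1% (15.1 to 25.9) and 14.3% (9.85 to 19.8) in Conj cells. Pygb thus gave most of the pair's counts in Conj cells of both libraries, with less Pygl there and Pygb near its Wing level. Gys1, glycogen synthase, was at 4.13, 4.24, 3.78, 4.04, 2.04, 0.487 and 1.53 CPM in control and at 7.17, 4.94, 4.70, 4.24, 2.15, 0.392 and 1.43 in diabetic cells, lowest in Squam cells of both libraries. Ugp2, which makes the activated glucose for glycogen, and Gbe1, the branching enzyme, were at 28.6 and 34.4 CPM and at 21.0 and 17.6 CPM over all cells.

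Beside the 5 lower calls in Squam cells stand 2 values of those cells. The median log2 ratio of all 10313 genes measured there was -0.08, and of the 32 members -0.14. The 4 squamous markers summed there to 29673 CPM in the control library and to 41294 in the diabetic. Psca alone made up most of both sums, at 28929.5 and 40529 CPM, while Cldn23 was at 445 and 424 CPM. The part of Psca in the lower calls was not tested. Under median-of-ratios scaling, which removes the shift of the median, Hk1, Ldhb, Pygb and Pygl still passed the rule. With cells thinned to 5000 UMIs, only Pygb of the 5 did, at a ratio of diabetic over control of 0.301, against 0.505 for Hk1, 0.682 for Pfkfb3, 0.746 for Ldhb and 0.589 for Pygl. Thinning also ended the calls of Hk2 in Conj (1.35), Pfkp in Wing (0.145) and Aldoc in LSC cells (0.419). The ratios of Hk1, Pygl, Pfkp and Aldoc stayed past the fold. Their calls thus ended on the minimum count or on overlapping intervals, not on a smaller ratio.

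Of the 37 members, 18 had a highest epithelial label at least 3-fold above the lowest in both libraries. The share of all genes with such a range was not computed, so the 18 are not a trait shown for these members. The median log2 ratio of Squam over Basal cells was -1.12 in control and -1.09 in diabetic cells for the members. For all genes it was -0.98 and -1.08. The rule was next applied to each outer label against Basal cells and called only where it held in both libraries, a comparison chosen after the values were seen. In the corneal epithelium wing cells form the middle and squamous cells the surface layer. The labels were made by the authors from these same cells, so it is a description. In Squam cells 22 of 33 measured members were lower than in Basal cells, where 58.8% of all genes were, and 3 were higher, Pdha1, Pgd and Taldo1, where 16.1% were. In Wing cells 4 were higher, Aldoc, G6pdx, Pgd and Taldo1 (14.5% of all genes), and 7 lower, Slc2a1, Pfkfb3, Gapdh, Ldhb, Pdk2, Pdk3 and Gys1 (20.7%). In Conj cells 4 were higher, Pdha1, G6pdx, Pgd and Taldo1 (16.3%), and 12 lower (38.1%). The lower shares were near those of all genes, so the members were lower in Squam cells about as often as other genes.

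By role, the lower glycolysis genes summed to 1917 and 1905 CPM in Basal, 1550 and 1441 in Wing and 869 and 789 in Squam control and diabetic cells. The middle cell of each label moved likewise, with a median of 1856 and 1845 CPM per cell in Basal and 810 and 745 in Squam cells. The summed pentose phosphate members went the other way, at 788 and 732 CPM in Basal, 1345 and 1109 in Wing, 1488 and 1362 in Squam and 2066 and 1658 in Conj cells. Taldo1 made up most of that sum in Squam cells, and the rise does not hold for the pathway as a whole. Pgls was 2.65-fold and 3.42-fold lower in Squam than in Basal cells. Tkt, which is outside the sum and far above it in Basal cells, fell from 8501 and 8694 CPM there to 680.3 and 531 in Squam cells. Of the members with ACGTG in the promoter window, 11 of 17 were lower in Squam than in Basal cells, and of those without it 11 of 16, much the same share.

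**Figure D5:**
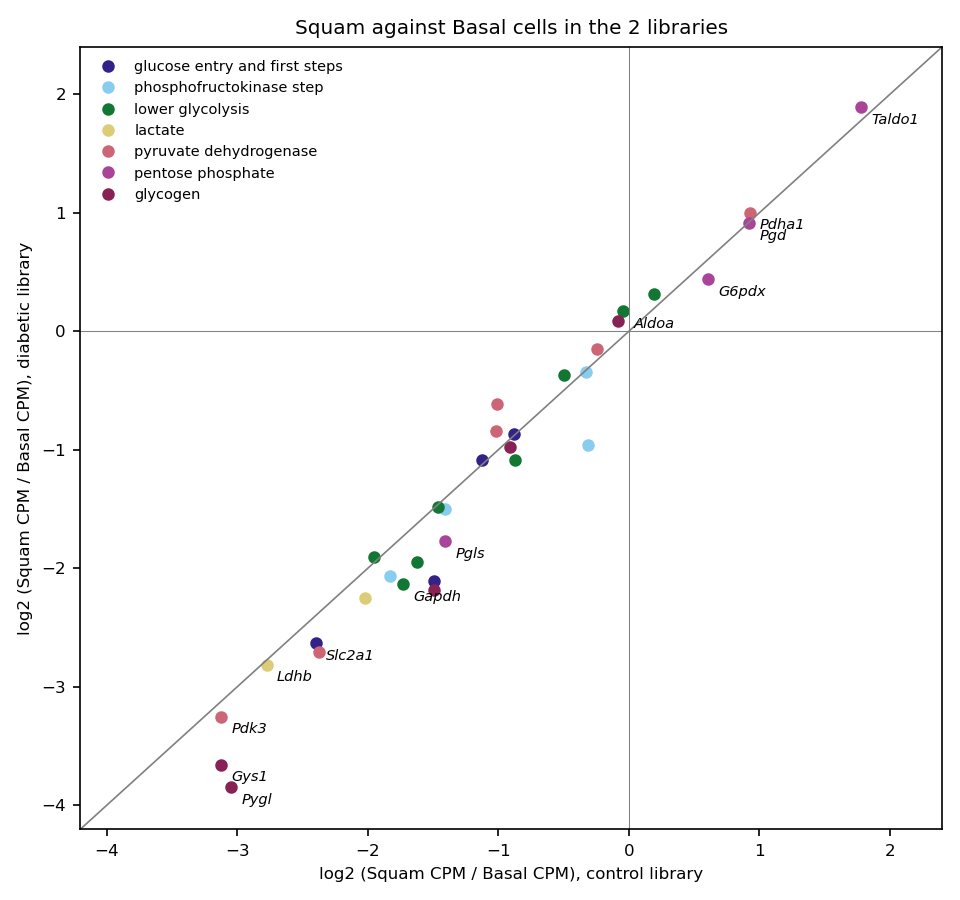
Log2 ratio of Squam over Basal CPM in the control (x axis) and diabetic (y axis) library for the 33 measured members, coloured by role, with the line of equal ratios. Pygl (-3.05 and -3.85), Pygb (-1.50 and -2.19), Pfkfb3 (-0.31 and -0.96) and Hk1 (-1.49 and -2.11) lie farthest below the line. Taldo1, Pgd, Pdha1, G6pdx and Aldoc lie above 0 in both libraries, and Pygl, Gys1 and Pdk3 lie lowest.

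Genes of 6 further lists, none of them members, were read in the same way over all cells. Of 16 other glycolysis genes measured, 0 were higher and 0 lower, with a median log2 ratio of 0.01. Of 15 other genes of pyruvate and lactate, 0 were higher and 1 lower, the monocarboxylate carrier family gene Slc16a6 at 3.50 and 2.26 CPM. Of 13 other genes of the pentose phosphate and hexosamine branches, 0 were higher and 0 lower. Of 21 other glycogen genes, 1 was higher, Pgm2l1 at 2.43 and 4.24 CPM, and 0 lower. Of 22 genes of the hypoxia response, of which Ndrg1 is also a squamous marker, 0 were higher and 1 lower, the angiogenic factor gene Vegfa at 1.85 and 1.07 CPM. In each of these 5 lists 0 or 1 gene was called in either direction. By the same rule 5.98% of all 13846 measured genes were higher and 2.8% lower over all cells.

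In the list of glucose-sensing factors and their targets, 2 of 7 measured genes were higher and 0 lower (5.98% and 2.8% of all genes). The median log2 ratio of the list was 0.19. The 2 higher genes were Txnip and Klf10. Txnip, a thioredoxin-binding protein that limits glucose uptake, was at 176 and 360 CPM. Klf10, a transcription factor gene, was at 6.49 and 14.0 CPM, 2.16-fold higher (2.02 to 2.31). Klf10 was called higher in 7 of the 7 epithelial labels and Txnip in 5, all but LSC and Conj. The share of all genes called in as many labels was not computed. In Squam cells 3 of the 7 measured genes lay above a ratio of 1, with a median log2 ratio of -0.12. The list was chosen with earlier results of these data known, so its counts are a description only. Named by being called in more than 1 label, Pcx, pyruvate carboxylase, and Me1, the cytosolic malic enzyme, were higher in Basal and TAC1 cells. In Basal cells Pcx was at 5.89 and 9.80 CPM and Me1 at 1.49 and 2.55. Ddit4, a hypoxia and stress gene, was higher in TAC1 and Wing cells (3.96 and 7.38 CPM in Wing), and Phkb, a subunit of phosphorylase kinase, was lower in LSC and Conj cells (31.0 and 20.3 CPM in Conj).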

How the data were processed

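Polyadenylated RNA of single corneal epithelial cells was read with the Chromium Next GEM Single Cell 3′ chemistry v3.1, per the labels. The submitters' processing notes name Cell Ranger 5.0.0, Seurat 4 and the build mm10 (GRCm38) but no roles, and no source used here gives a filter on cells. The authors deposited raw UMI counts per gene and cell, used here unchanged, with a table of each cell's library and label. Doublets were kept, and free RNA was not measured.

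Counts were summed per label and library (196359192 UMIs in control, 171030636 in diabetic cells). Rare genes are therefore the least precise. CPM had exact Poisson intervals, ratios exact conditional binomial intervals and shares Clopper-Pearson intervals, all at 95%, and each covers counting error only (Python 3.11.15, scipy 1.17.1, pandas 2.3.3). With 1 library per group there was no test across samples. Doublet scores came from Scrublet in scanpy 1.11.5.

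The members and lists were chosen with earlier results of these data known. Every member is accounted for. Levels in every epithelial label are given for members called in all cells or in any epithelial label, and for members with a 3-fold range over labels in both libraries. Of other lists, genes called over all cells or in more than 1 label are named, and Tkt whatever its value. Promoters are from RefSeq (GRCm38.p6), gene positions from GENCODE M21. Alternatives were another scaling, other minimum counts (10, 200) and folds (5 to 4, 2), equal cell or label weights, removal of the top 8% of doublet scores or of cells over 10% mitochondrial counts, thinning to 5000 UMIs, and leaving out LSC, Conj and Immune cells, the last added after seeing the data, as were the comparison of outer labels with Basal cells and the motif TGACNNNGC.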

Additional observations from a re-analysis of the deposited data

Results flagged for a closer look

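Of the members, 2 differed between the libraries in opposite directions in different labels by a ratio of at least 5 to 4 each way, with intervals of the ratio on either side of 1. Members with smaller ratios are not counted here. The share of all genes that differed in this way was not computed, so the count is not a trait shown for these members. These differences between labels were not tested. For Slc2a1, the glucose transporter gene, the log2 ratio of diabetic over control was 0.72 in LSC and -0.43 in Squam cells. For Aldoc, the second aldolase gene, it was 0.42 in Basal, 0.55 in Squam and 0.48 in Conj cells and -0.90 in LSC cells. The LSC value of Slc2a1 rested on 21 control and 73 diabetic counts. The interval of its ratio, 1.001 to 2.815, barely cleared 1, and Slc2a1 passed the 1.5-fold rule in no label. The LSC label held 202 control and 331 diabetic cells with a median of 9260 and 12284 UMIs, the shallowest of the 7 epithelial labels.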

How the results depend on the processing

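The median log2 ratio of the members changed sign, close to 0, in LSC with equal weight for every cell (0.04 to -0.06), in TAC1 without likely doublets (-0.011 to 0.0014) and in Conj cells with thinning (-0.0030 to 0.07). Over all cells, 2 members were called higher and 3 lower at a ratio of 5 to 4, 1 lower (Ldhb) with the same label weights in both libraries and 1 lower (Ldhb) with cells thinned to 5000 UMIs. The 1 pair of member and label called higher (Hk2 in Conj) became 3 under median-of-ratios scaling, 14 at a ratio of 5 to 4, 2 without likely doublets and 2 with equal weight for every cell, and 0 with a minimum of 200 counts or a fold of 2. The 12 pairs called lower became 30 at a ratio of 5 to 4, 2 at a fold of 2 and 7 with thinning. They became 9 with equal weight for every cell and 11 under median-of-ratios scaling. With a minimum of 200 counts they became 8, and with a minimum of 10 they became 13. The labels with a lower call of Ldhb, 6 of 7, became 0 at a fold of 2 and 3 with thinning. They became 4 with equal weight for every cell and 5 with a minimum of 200 counts. For the Ldhb calls lost with thinning, the ratio of diabetic over control moved from 0.568 to 0.710 in Conj cells. It moved from 0.608 to 0.746 in Squam and from 0.534 to 0.573 in LSC cells, the last still past the fold of the rule. The Ldhb share of lactate dehydrogenase counts was 5.78% in control and 3.80% in diabetic cells with thinning. The log2 ratios of Ldhb (-0.63 to -0.49), Taldo1 (-0.46 to -0.30), Aldoa (-0.41 to -0.28), Tpi1 (-0.37 to -0.31), Pkm (0.26 to 0.32), Pdk2 (0.28 to 0.39) and Pygl (-0.31 to -0.17) kept their sign in 7 of 7 alternatives each. Dlat, at 0.14, went as low as 0.02. No paired analysis was possible because each group holds 1 library. Depth limits Slc16a1, Pfkp and Gys1 within labels, and no value has a replicate check.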

Other observations

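The Immune cells, 26 in control and 10 in diabetic, were outside the comparisons by label and were counted in the sums over all cells. Their lower glycolysis genes summed to 1582 CPM (1341 to 1855) on 152 counts in control and 1274 CPM (910.1 to 1735) on 40 counts in diabetic cells. Their pentose phosphate members summed to 749 CPM (586 to 944) and 733 CPM (464 to 1099). The intervals overlapped in both cases.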
